A study of Saccharomyces cerevisiae with 8 samples.

Results

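ARO8, ARO9, ARO10 and ARO80 are the genes with which Saccharomyces cerevisiae starts and controls the breakdown of phenylalanine, tyrosine and tryptophan. They were taken as the spots that carry 1 of these 4 symbols, 8 of 12800 spots, and they are 4 of the 5539 genes on the array. ARO8 is YGL202W, ARO9 is YHR137W, ARO10 is YDR380W and ARO80 is YDR421W. The members were chosen by their measured ratios in the bas2 and gcn4 deletion strains against BY4741, so these 2 comparisons are given for the 4 genes as a description, with no test.

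In the Ehrlich pathway, yeast takes the amino group off an aromatic amino acid, decarboxylates the resulting keto acid and turns the aldehyde into a fusel alcohol or a fusel acid. Aro8 and Aro9 are aromatic aminotransferases, Aro10 is the keto acid decarboxylase, and Aro80 is a zinc cluster activator that turns on ARO9 and ARO10 when aromatic amino acids are present. ARO9 and ARO10 are also under nitrogen regulation by GATA factors, whereas ARO8 is known as a more constant gene that also serves synthesis and responds to general amino acid control, the regulation that acts through Gcn4.

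On each of 8 spotted arrays, channel 1 held RNA of a strain given 10 mM glycine in minimal medium and channel 2 held RNA of the same strain in minimal medium alone, both from steady-state growth up to early log phase. The strains, which the labels call deletion set strains, were bas1 (Y06015, 2 arrays, replicates 1 and 2), bas2 (Y03803, 2 arrays, replicates 1 and 2), gcn4 (Y00249, 1 array), shm2 (Y02669, 1 array) and BY4741 (2 arrays, replicates 1 and 3). BY4741 is the usual parent of the deletion collection and itself lacks functional HIS3, LEU2, MET15 and URA3. Bas1 and Bas2 (also called Pho2) are transcription factors of purine and one-carbon genes, Gcn4 activates amino acid synthesis genes, and SHM2 encodes cytosolic serine hydroxymethyltransferase. Each deletion strain is 1 strain of the collection, and no label ties replicate arrays to cultures of their own. Any p-value below therefore measures only the spread between these arrays, which may be technical. The source name of bas2 replicate 1 says BY4741 while its title and description say bas2, and BY4741 replicate 3 has zap1 in its title as well. Both arrays were kept in the group of their titles.

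All values are log2 ratios of the 2 channels, averaged over the spots of a gene and centred on the median gene of the array, so 0 is the middle gene. The sources do not say which channel is on top. A negative ratio is likely higher with glycine, because GCV1, a glycine cleavage gene known to be induced by glycine, stood at -5.45 on bas2 replicate 1 and at -4.46 on gcn4, against -6.27 and -5.27 in BY4741. On bas1 replicate 1 it stood at -1.17 and on shm2 at -0.20. Over spots, bas1 replicate 1 and BY4741 replicate 1 correlated at -0.304, the only 1 of 28 pairs of arrays under -0.3. The direction was therefore not taken as settled for this pair. Comparisons are also given with the sign of BY4741 replicate 1, of both bas1 arrays or of bas1 replicate 1 alone turned. BY4741 replicate 1 itself correlated at 0.42 with BY4741 replicate 3 and at 0.62 with gcn4, and GCV1 had the same sign on all 3. GCV2, a second glycine cleavage gene, and SHM2 stood at 0.78 and 1.41 on bas1 replicate 1, at -0.10 and 0.79 on bas1 replicate 2, at -3.72 and -3.73 on bas2 replicate 1, at -2.29 and -2.995 on bas2 replicate 2, at -2.65 and -2.63 on gcn4 and at -0.27 and -0.24 on shm2. They stood at -1.65 and -3.08 on BY4741 replicate 1 and at -0.64 and -1.47 on BY4741 replicate 3. The landmarks were thus negative on both BY4741 arrays, and on bas2 and gcn4 wherever measured, and were of mixed sign on each bas1 array. On shm2 they lay close to the middle gene (SD over genes 0.73), and SHM2 is the gene deleted in that strain. No direction was read from the shm2 array. Spots without a value numbered 45 to 752 of 12800 on 6 arrays, 2302 on bas2 replicate 2 and 5465 on bas1 replicate 2. These 2 arrays also had the widest spread over genes (SD 1.22 and 2.07, against 0.38 to 1.11 on the others).

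ARO10 and ARO9, the targets of Aro80, had ratios below the middle in bas2 and gcn4 and above it in BY4741. ARO8 had ratios above the middle in bas1 and shm2 and below it in gcn4 and BY4741, and ARO80 gave no common pattern. No gene of the whole array passed the limma test in any of the 4 comparisons of a deletion strain with BY4741 (0% called, adjusted p under 0.05). An unadjusted limma p under 0.05 was reached by 494 of 3429 genes in bas1, 90 of 4874 in bas2, 187 of 5353 in gcn4 and 206 of 5442 in shm2. Some genes passed in bas1 minus BY4741 without bas1 replicate 1, and in gcn4 minus BY4741 without bas1 and bas2 replicate 2. The first fit leaves bas1 with 1 array, the widest of all (SD 2.07), judged by the spread of other strains. The second leaves BY4741 as the only strain with 2 arrays, so the spread between arrays comes from that pair. Nothing is read from these calls.

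In BY4741 itself, both arrays of ARO9 and of ARO10 stood at 0.5 or higher, as did 1.85% of 5512 genes, and both arrays of ARO8 at -0.5 or lower, as did 3.86%. These shares are given beside the members because BY4741 took part in their choice, and nothing is read from them.

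ARO10, the decarboxylase that commits the keto acid to the fusel branch, stood at -0.75 and -1.76 on the bas2 arrays, against 1.42 and 1.62 on the BY4741 arrays. On the gcn4 array it stood at -0.68. The bas2 and gcn4 arrays thus lay on the other side of the middle gene from both BY4741 arrays, with no overlap. Such opposite signs were found for 6.61% of genes in bas2 and 5.55% in gcn4, and every array below both BY4741 arrays for 20.8% in bas2 and 33.7% in gcn4. On the bas1 arrays ARO10 stood at -0.13 and 1.01, and on the shm2 array at 0.24, all between the values of bas2 and BY4741. The difference of log2 ratios from BY4741 was -2.78 ± 0.59 in bas2 (SE, 2 arrays each) and -2.20 ± 0.72 in gcn4 (SE, 1 array against 2). Among all genes the bas2 difference was the 13th lowest of 4874, and the gcn4 difference the 135th lowest of 5353. These places depended on single arrays. The bas2 place was 7th without BY4741 replicate 1, 100th without BY4741 replicate 3, 54th without bas2 replicate 1 and 33rd without bas2 replicate 2. The gcn4 place was 156th and 165th without BY4741 replicates 1 and 3. With the sign of BY4741 replicate 1 turned the bas2 and gcn4 differences were -1.35 and -0.78, at the 217th and 1439th lowest place. ARO10 then overlapped between each strain and BY4741.

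The strain means of ARO10 ran in the order bas2 (-1.25), gcn4 (-0.68), shm2 (0.24), bas1 (0.44) and BY4741 (1.52). The gaps between neighbours were 0.57, 0.91, 0.20 and 1.09 in that order, given with no test. The array values were not equally firm. The duplicate spots of ARO10 differed by 0.03 to 0.40 on 6 arrays, but by 2.02 on bas2 replicate 2 and by 2.76 on bas1 replicate 2. On bas2 replicate 2 the single spots stood at -0.75 and -2.77, both below the middle, and on bas1 replicate 2 at -0.38 and 2.39, 1 on each side of it.

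**Figure D1:**
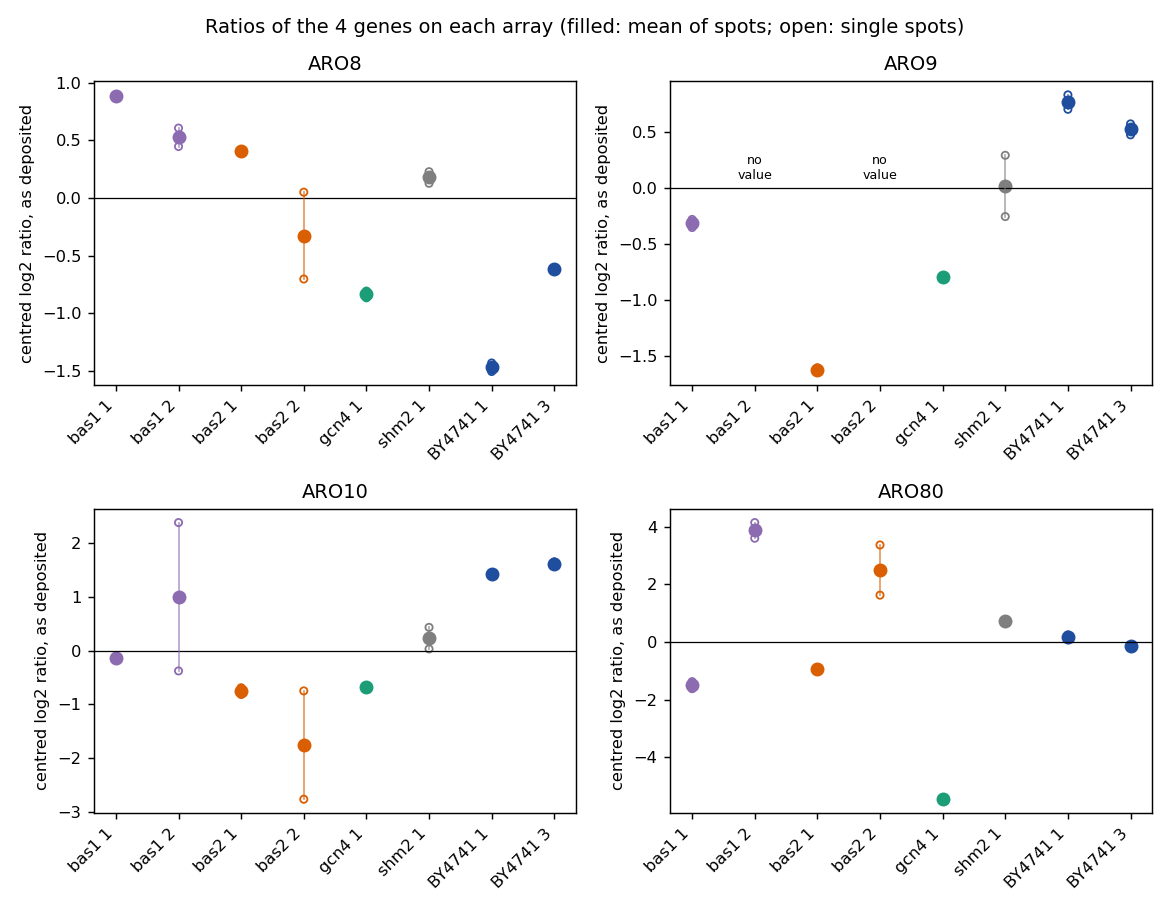
Centred log2 ratio (vertical axis, sign as deposited) of ARO8, ARO9, ARO10 and ARO80 on each of the 8 arrays (horizontal axis, strain and replicate). Filled points are gene values, open points single spots joined by a line; ARO10 stood at -0.75, -1.76 and -0.68 on the bas2 and gcn4 arrays and at 1.42 and 1.62 on the BY4741 arrays, and ARO9 had no value on bas1 and bas2 replicate 2.

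ARO9, the aminotransferase that Aro80 induces, lay on the same side of the middle gene as ARO10 on each of the 6 arrays that measured it. This describes values that took part in the choice of both. On shm2 the side is not firm, since the single spots of ARO9 stood at 0.29 and -0.26 there. ARO9 had no value on replicate 2 of bas1 and of bas2, so its bas1 and bas2 values rest on 1 array each. ARO9 stood at -1.62 on bas2 replicate 1 and at -0.79 on the gcn4 array, against 0.77 and 0.52 on the BY4741 arrays. Neither strain overlapped with BY4741. On bas1 replicate 1 it stood at -0.32 and on shm2 at 0.02, so all 4 deletion strains lay below both BY4741 arrays wherever ARO9 was measured. Over all genes the 1 array lay below both for 33.7% in gcn4 and 36.7% in shm2. The shares of 22.4% in bas1 and 20.8% in bas2 ask for both arrays of the strain to lie below. They cover genes measured on both arrays, so ARO9 is not among them and the shares are not like for like. ARO9 on bas1 replicate 1 and on shm2, with BY4741 replicate 1 turned, lay between the BY4741 arrays. The bas2 array that carries the ARO9 value is the one whose source name gives BY4741.

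For ARO9 the gcn4 difference was -1.44 ± 0.57 (SE, 1 array against 2), and the difference of bas2 replicate 1 from the BY4741 mean was -2.26, with no replicate check. Each SE of ARO9 rests on the BY4741 pair and the spread shared over genes (residual df 1, against 3 for the other members). With the sign of BY4741 replicate 1 turned the gcn4 difference was -0.67. The order of the strains was bas2 (-1.62), gcn4 (-0.79), bas1 (-0.32), shm2 (0.02) and BY4741 (0.64), with gaps of 0.83, 0.48, 0.33 and 0.63 between neighbours. Its duplicate spots lay within 0.01 to 0.13 of each other on 5 of the 6 arrays and 0.55 apart on shm2.

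ARO8, the aminotransferase that works in synthesis as well as breakdown, went the other way. It stood at 0.88 and 0.53 on the bas1 arrays, at 0.41 and -0.33 on the bas2 arrays, at -0.84 on gcn4 and at 0.18 on shm2, against -1.47 and -0.62 on the BY4741 arrays. All arrays of bas1, bas2 and shm2 lay above both BY4741 arrays, and the gcn4 array lay between them. The smallest of these gaps was that between bas2 replicate 2 and BY4741 replicate 3, 0.29. Duplicate spots of ARO8 lay at most 0.16 apart on every array except bas2 replicate 2, where they were 0.75 apart. By strain mean the order was bas1 (0.70), shm2 (0.18), bas2 (0.04), gcn4 (-0.84) and BY4741 (-1.04), with gaps of 0.53, 0.14, 0.88 and 0.21 between neighbours.

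The ARO8 difference was 1.08 ± 0.51 in bas2 and 0.21 ± 0.62 in gcn4. Without centring the gcn4 difference was -0.54. With BY4741 replicate 1 turned the bas2 and gcn4 differences were -0.39 and -1.26, so the sign of both turns with that array, and gcn4 then lay below both BY4741 arrays, as did 42.6% of genes (42.5% lay above). In bas1, a comparison that the choice of the genes did not name, the difference was 1.75 ± 0.51 (higher than both BY4741 arrays on 2 of 2 arrays, limma adjusted p = 0.338). It was 0.34 with both bas1 arrays turned and 0.28 with BY4741 replicate 1 turned, and the groups overlapped under each, where 14.5% and 17.6% of all genes had every bas1 array higher. In shm2 the ARO8 difference was 1.22 ± 0.62 (limma adjusted p = 1.00), and -0.25 with BY4741 replicate 1 turned. Values above both BY4741 arrays were common over the whole array. In all, 31.4% of 3429 genes had every bas1 array higher, 19.8% of 4874 had every bas2 array higher, and 36.6% of 5442 had the shm2 array higher.

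ARO80, the activator itself, varied most between arrays. It stood at -1.50 and 3.87 on the bas1 arrays, at -0.93 and 2.49 on the bas2 arrays, at -5.46 on gcn4 and at 0.72 on shm2, against 0.16 and -0.12 on the BY4741 arrays. The replicates of bas1 and of bas2 lay on opposite sides of the middle gene and of both BY4741 arrays, and the high values were those of the 2 arrays with the widest spread. The gcn4 and shm2 values each rested on 1 spot, since the other spot had no value. The differences from BY4741 were 1.17 ± 1.99 in bas1, 0.76 ± 1.99 in bas2, -5.47 ± 2.44 in gcn4 and 0.70 ± 2.44 in shm2. The gcn4 difference was the 8th lowest of 5353, and it was -5.31 with BY4741 replicate 1 turned. In the order gcn4 (-5.46), BY4741 (0.02), shm2 (0.72), bas2 (0.78) and bas1 (1.18), the gap between gcn4 and BY4741 was 5.47, from 1 spot on 1 array of gcn4, and the other gaps were 0.70, 0.06 and 0.40. Of the 3 strains with replicates, BY4741 had the closest pair for ARO80, near the middle gene on both arrays, where ARO9 and ARO10 stood above it.

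**Figure D2:**
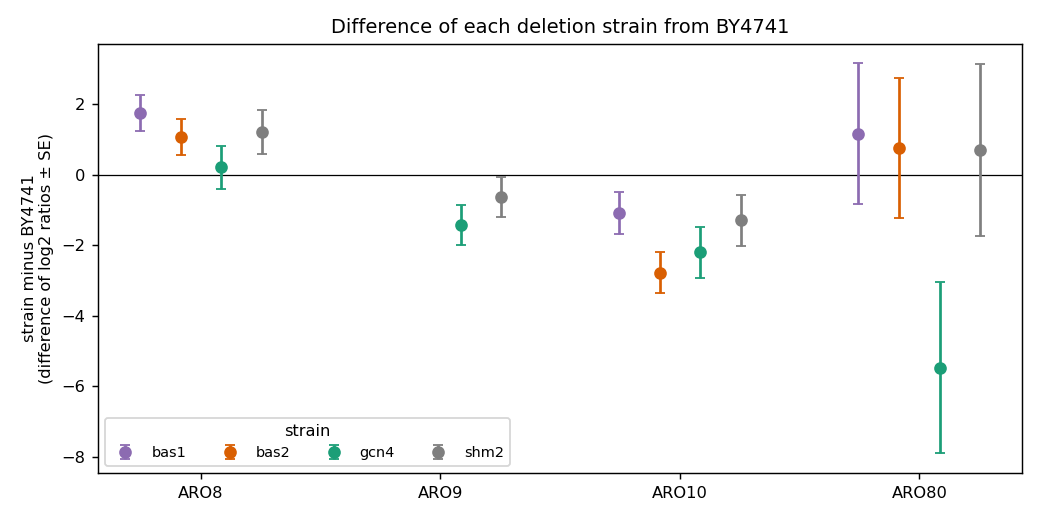
Difference of the log2 ratio of each deletion strain from BY4741 (vertical axis, ± SE of the limma fit) for ARO8, ARO9, ARO10 and ARO80 (horizontal axis), with a colour for each strain. ARO10 lay at -2.78 in bas2 and at -2.20 in gcn4, ARO8 at 1.75 in bas1, and the errors of ARO80 were 1.99 to 2.44; ARO9 has no bas1 or bas2 point because 1 array of each had no value.

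In the comparisons that the choice of the genes did not name, none of the members passed the test. ARO10 differed from BY4741 by -1.09 ± 0.59 in bas1 (limma adjusted p = 0.392) and by -1.29 ± 0.72 in shm2 (limma adjusted p = 1.00). Both bas1 arrays and the shm2 array lay below both BY4741 arrays, as they did for 22.4% of 3429 genes in bas1 and 36.7% of 5442 in shm2. ARO10 was at -1.96 in bas1 with both bas1 arrays turned, again below both BY4741 arrays, against a background of 24.0% then, and at 0.34 with BY4741 replicate 1 turned, when the groups overlapped and 8.34% of genes had every bas1 array lower. In shm2 it was at 0.14 with that array turned, inside the BY4741 range, where 29.8% of genes lay below it. ARO9 differed by -0.63 ± 0.57 in shm2 (limma adjusted p = 1.00), and by 0.14 with BY4741 replicate 1 turned. ARO80 had limma adjusted p = 0.732 in bas1 and 1.00 in shm2. These comparisons share the BY4741 arrays with those of bas2 and gcn4. The strains' own ratios, which do not use BY4741, were 0.70 ± 0.36 for ARO8, 0.44 ± 0.42 for ARO10 and 1.18 ± 1.41 for ARO80 in bas1 (limma adjusted p = 0.333, 0.538 and 0.624). They were 0.18 ± 0.51, 0.02 ± 0.46, 0.24 ± 0.59 and 0.72 ± 1.99 for ARO8, ARO9, ARO10 and ARO80 in shm2 (limma adjusted p = 1.00 for each).

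**Figure D3:**
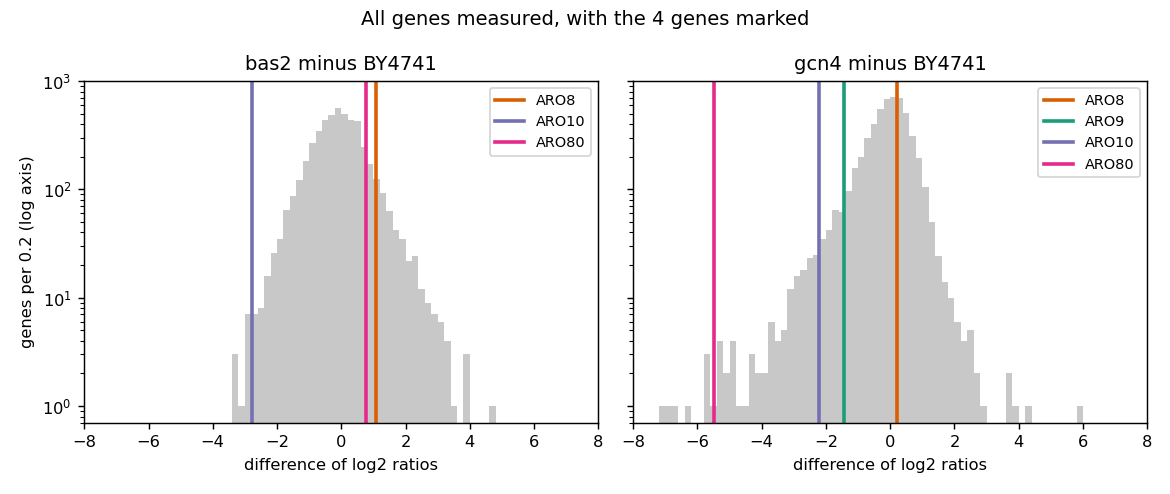
Number of genes (vertical axis, log scale) by difference of log2 ratios (horizontal axis, bins of 0.2) in bas2 minus BY4741 and gcn4 minus BY4741, with lines at the 4 genes. ARO10 lies in the lower tail of both (13th lowest of 4874 and 135th lowest of 5353), ARO80 is at 0.76 in bas2 and at -5.47 in gcn4, and ARO9 is shown only for gcn4.

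The genes with the pattern most like each member were looked up by the smallest root mean square difference of log2 ratio over the arrays that measured the member. For ARO10 over 8 arrays the nearest was RGC1 (YPR115W), a regulator of the glycerol channel, at 0.45 log2 units among 3167 genes, where the median was 1.36. RGC1 stood at -0.42 and -1.50 in bas2 and -0.37 in gcn4, against 1.35 and 2.61 in BY4741. YFR006W (0.88) and HST3, a histone deacetylase of the sirtuin family (0.93), came next. For ARO9 over 6 arrays the nearest were MPS2 (0.47), a spindle pole body gene, STE50 (0.49), a mating and osmotic signalling adaptor, and PIM1 (0.51), a mitochondrial protease, among 5286 genes. For ARO8 over 8 arrays they were FMP52 (0.22), PHO5 (0.23), the secreted acid phosphatase whose activator is Bas2 with Pho4, and SHM1 (0.23), the mitochondrial serine hydroxymethyltransferase, against a median of 1.01. For ARO80 they were GAL7 (0.95), a galactose enzyme, HXT13 (1.01), a hexose transporter gene, and IKS1 (1.01), a protein kinase gene, with a median of 2.73. GAL7 stood at -5.38 and HXT13 at -4.79 on gcn4, where ARO80 stood at -5.46.

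The rest of the pathway was described through 9 lists with 50 genes in all, and none of these genes passed the limma test in any of the 4 comparisons. Of 47 list genes measured in bas2 and BY4741, 38 had a positive difference and 9 a negative one, with a median of 0.58 against -0.08 over all genes. ARO10, at -2.78, had the other sign from most of these genes. In gcn4, 31 of 50 were positive (median 0.10, against -0.01 over all genes). In bas1, 36 of 45 were positive (median 1.05, against 0.11 over all genes). In shm2, 37 of 50 were positive (median 0.51, against -0.002 over all genes). Most list genes were thus positive in bas1 and shm2 as well as in bas2. Every array lay above both BY4741 arrays for 20 of 47 in bas2 and 14 of 50 in gcn4, against 19.8% and 29.4% of all genes, and below both for 1 of 47 and 12 of 50, against 20.8% and 33.7% of all genes. With BY4741 replicate 1 turned, 20 of 47 were positive in bas2 and 16 of 50 in gcn4, and without centring 24 of 47 and 7 of 50.

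Beside ARO10, the other decarboxylase genes (PDC1, PDC5, PDC6 and THI3) had 4 of 4 positive differences in bas2 (median 0.89) and 2 of 4 in gcn4 (median 0.12). They had 3 of 3 measured genes positive in bas1 and 4 of 4 in shm2. PDC6, a minor pyruvate decarboxylase, differed by 1.08 ± 0.66 in bas2 and by -1.60 ± 0.81 in gcn4. PDC1, the major one, differed by 0.70 ± 0.72 and 0.81 ± 0.88, and THI3, a regulator of thiamine genes with decarboxylase similarity, by 0.37 ± 0.48 and -0.55 ± 0.59. With BY4741 replicate 1 turned, 0 of 4 were positive in bas2 (median -0.56) and 0 of 4 in gcn4 (median -1.34). Their sign in bas2 thus turned with that array.

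The alcohol dehydrogenases, which make the fusel alcohol, had 7 of 7 measured genes positive in bas2 (median 1.01) and 6 of 8 in gcn4 (median 0.23). They had 7 of 7 positive in bas1 and 8 of 8 in shm2. ADH5 differed by 1.77 ± 0.84, ADH6 by 1.33 ± 0.64 and ADH3, the mitochondrial enzyme, by 1.26 ± 0.65 in bas2, and by -0.86, 0.28 and 0.04 in gcn4. Turning BY4741 replicate 1 left 1 of 7 positive in bas2 and 1 of 8 in gcn4. The aldehyde dehydrogenases, which make the fusel acid, had 4 of 5 positive in bas2 (median 0.16) and 4 of 5 in gcn4 (median 0.30), among them ALD2 at -0.04 and 0.30 and ALD5 at 0.23 and -0.73. With that array turned 1 of 5 was positive in each. PDR12, the exporter of organic and fusel acids, stood at 0.76 in gcn4 and at -0.09 and 1.09 in bas2, against 2.30 and 0.71 in BY4741. Its ratio was thus above the middle in BY4741 like those of ARO9 and ARO10, and it overlapped between bas2 and BY4741 and between gcn4 and BY4741. ESBP6, a gene of the monocarboxylate transporter family, stood at -1.76 in gcn4, at -0.12 and -0.65 in bas2 and at -1.33 and -0.27 in BY4741.

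**Figure D4:**
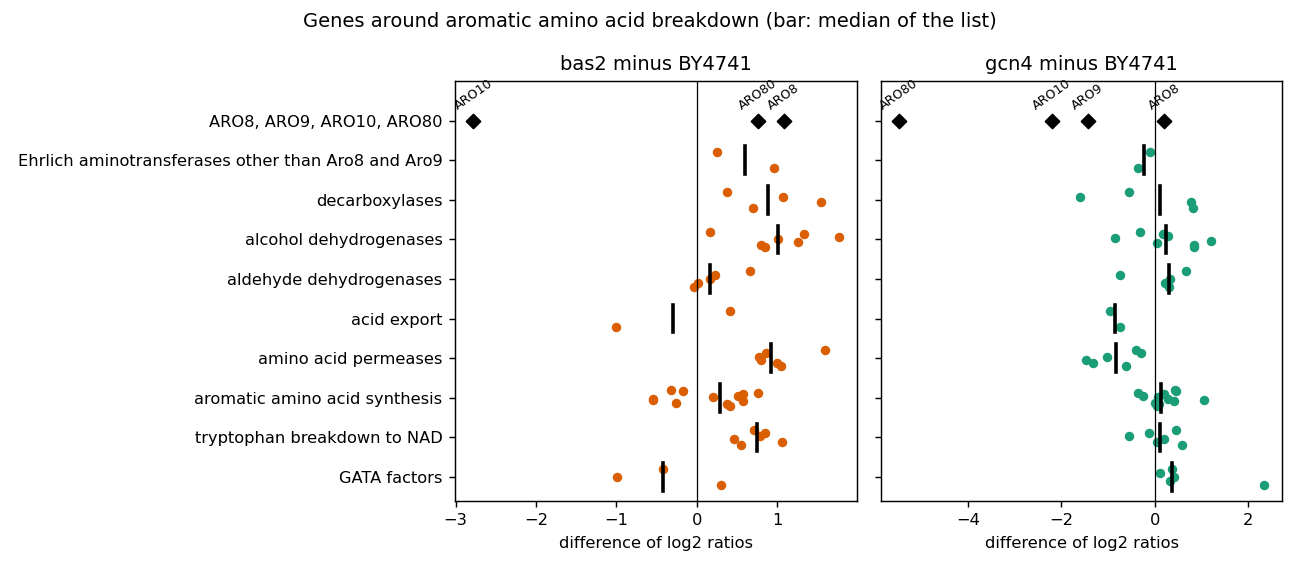
Difference of log2 ratios (horizontal axis) in bas2 minus BY4741 and gcn4 minus BY4741 for ARO8, ARO9, ARO10 and ARO80 (diamonds) and for the genes of 9 lists (points, 1 per gene; bars are list medians). In bas2 the 6 amino acid permease genes lie above 0 (median 0.93) and ARO10 at -2.78; in gcn4 the 6 permease genes lie below 0 (median -0.82); ARO9 is not drawn for bas2, where 1 array had no value.

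Uptake genes had opposite signs in the bas2 and gcn4 comparisons, a contrast that was not tested. All 6 permease genes (TAT1, TAT2, BAP2, BAP3, GAP1 and AGP1) had positive differences in bas2, with a median of 0.93, and negative ones in gcn4, with a median of -0.82. The positive sign was not particular to bas2. All 6 were also positive in bas1 (median 1.42) and in shm2 (median 1.05), where 54.2% and 49.9% of all genes were positive. The comparisons share the BY4741 arrays. AGP1, a broad amino acid permease, differed by 1.60 ± 0.62 in bas2 and by -0.40 ± 0.76 in gcn4. TAT2, the tryptophan and tyrosine permease, differed by 1.00 ± 0.64 and -1.31 ± 0.79, and BAP2, the branched-chain permease, by 0.81 ± 0.45 and -1.46 ± 0.56. In bas2, 5 of the 6 had both arrays above both BY4741 arrays, against 19.8% of all genes, and in gcn4, 4 of the 6 lay below both, against 33.7%. With BY4741 replicate 1 turned these counts were 0 of 6 (15.6% of all genes) and 6 of 6 (42.6%), and without BY4741 replicate 3 the permease median in gcn4 was -0.27 with 4 of 6 negative. BAT1, the mitochondrial branched-chain aminotransferase, stood at 1.14 and 0.23 in bas2 and -0.63 in gcn4, against -0.25 and -0.30 in BY4741. BAT2, the cytosolic one, stood at 0.10 and -0.22 in bas2 and -0.42 in gcn4, against -1.14 and 0.50 in BY4741, within the spread of the parent.

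Of the genes of aromatic amino acid synthesis, 7 of 12 were positive in bas2 (median 0.29) and 10 of 12 in gcn4 (median 0.14). TRP5, tryptophan synthase, differed by 0.76 ± 0.44 in bas2 and -0.37 in gcn4. ARO4, a DAHP synthase at the entry of the pathway, differed by 0.58 ± 0.37 and 0.42, and ARO7, chorismate mutase, by -0.55 and 1.06 ± 0.71. The genes of tryptophan breakdown to NAD had 6 of 6 positive in bas2 (median 0.75) and 4 of 6 in gcn4 (median 0.12). BNA2, which opens the tryptophan ring, differed by 1.06 ± 0.60 in bas2 and 0.04 in gcn4, BNA6 by 0.85 ± 0.53 and -0.14, and BNA5 by 0.79 ± 0.46 and -0.55. Of the GATA factors and their regulators, 1 of the 3 genes measured in bas2 and all 5 in gcn4 were positive. Turning BY4741 replicate 1 gave 6 of 12 positive in bas2 and 7 of 12 in gcn4 for aromatic synthesis, 4 of 6 and 3 of 6 for tryptophan breakdown to NAD, and 2 of 3 and 3 of 5 for the GATA list. GLN3, an activator of nitrogen genes, differed by 2.34 ± 2.58 in gcn4, and DAL80, a repressor, by 0.41 ± 2.96, each difference smaller than its standard error.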

How the data were processed

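The deposited values are log2 ratios of 2 channels, 1 per spot and array. The labels name a GenePix 4000B scanner and GenePix Pro 3.0. Not given in the sources used here are background handling, spot filters, dyes, ratio direction and normalization. The deposited log2 values sit on ratio steps of 0.001 (98.43% to 99.99% of values per array within 0.01 of a step). Array medians over genes ran from -0.78 to 0.65, so the deposited arrays were not centred. Channel signals were not used here; the number of arrays limits precision.

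Of 12800 spots, 11138 carried 1 symbol, 0 several and 1662 none; 11128 matched RefSeq (assembly R64) by gene ID. No genome build is named, so no positions are given, and sequences and promoter motifs were not analysed here. Spots were averaged per gene and arrays centred on the median gene. limma 3.58.1 (R 4.3.3) fitted 5 strain means over 8 arrays, with Benjamini-Hochberg adjustment over genes with a value on every array compared. For gcn4 and shm2, with 1 array each, the spread was taken from the other strains. The fit was tested on simulated data with no missing values and equal noise on every array, unlike the arrays here. That test checks the code and does not show how well the fit works on these arrays.

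The members, the lists and the rule for named genes (all members, both genes of lists of 2, up to 3 genes of longer lists with the largest bas2 or gcn4 difference outside the BY4741 range, GCV1, GCV2 and SHM2, and 3 nearest genes a member) were chosen with earlier results of these data known. Both channels of an array hold the same strain, so a ratio does not check a deletion. Alternatives were centring, scaling, spots per gene, genes tested, leaving out arrays, the replicate number as a block and turned signs.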

Additional observations from a re-analysis of the deposited data

Results flagged for a closer look

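Opposite ratios on every array with a value, in a deletion strain and in BY4741, were seen for 2 of the 4 genes, and these differences were not tested because the choice of the genes used them. ARO10 lay below the middle gene on both bas2 arrays and above it on both BY4741 arrays, a difference of -2.78, and it lay below on the gcn4 array, a difference of -2.20. ARO9 lay below on the 1 bas2 array with a value, a difference of -2.26, and below on the gcn4 array, a difference of -1.44. Values below 0 on every array of the strain and above 0 on both BY4741 arrays were also counted over all genes. They were found for 6.61% of 4874 genes in bas2 and for 5.55% of 5353 in gcn4. The rule used for the 4 genes also allowed the reverse case, which was not counted over all genes. The bas2 share covers genes measured on both bas2 arrays, so ARO9 is not among them. Without bas2 replicate 1, whose labels conflict, the bas2 difference of ARO10 was -3.28, and without bas2 replicate 2 it was -2.28.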

How the results depend on the processing

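ARO10 kept its negative difference in bas2 (-4.29 to -1.35 over 15 alternatives) and in gcn4 (-3.30 to -0.78). So did ARO9 in gcn4 (-2.18 to -0.67 over 14). These differences took part in the choice of the genes. Several of the alternatives change only arrays of other strains, such as those of bas1, and cannot move these differences. The number of alternatives is therefore not a number of checks. Without centring the median difference of all genes was -0.65, -0.64, -0.76 and -0.62 in bas1, bas2, gcn4 and shm2, and relative to it ARO10 stayed negative. Without centring the bas2 ratio of ARO8 was -0.031, while its difference from BY4741 was 0.52 in bas2 and -0.54 in gcn4. The shm2 ratio of ARO9 was then -0.11. Scaled to a common median absolute deviation, ARO80 in BY4741 was at -0.10. Without BY4741 replicate 1 it was at -0.12 and the gcn4 difference of ARO8 at -0.22. Without bas1 replicate 2, also when bas2 replicate 2 was left out with it, the bas1 ratio was -0.13 for ARO10 and -1.50 for ARO80, whose difference was -1.52. Without bas2 replicate 1 the bas2 ratio of ARO8 was -0.33. Without bas2 replicate 2, alone or with bas1 replicate 2, ARO80 was at -0.93 in bas2, a difference of -0.95. With both bas1 arrays turned the bas1 ratios of ARO8, ARO10 and ARO80 were -0.70, -0.44 and -1.18 and the ARO80 difference -1.20. With bas1 replicate 1 alone turned the bas1 ratio of ARO8 was -0.18. The bas1 differences from BY4741 were then 0.86 for ARO8, -0.95 for ARO10 and 2.67 for ARO80. With BY4741 replicate 1 turned, BY4741 ratios were 0.42 for ARO8, -0.12 for ARO9 and -0.14 for ARO80. The ARO8 differences were then -0.39 in bas2, -1.26 in gcn4 and -0.25 in shm2, those of ARO10 0.34 in bas1 and 0.14 in shm2, and that of ARO9 0.14 in shm2. Leaving out 1 array in turn gave ratios of -0.12 to 0.16 for ARO80 in BY4741, -0.13 to 1.01 for ARO10 and -1.50 to 3.87 for ARO80 in bas1, and -0.33 to 0.41 for ARO8 and -0.93 to 2.49 for ARO80 in bas2. Differences were -1.52 to 3.85 for ARO80 in bas1, -0.95 to 2.48 for ARO80 in bas2 and -0.22 to 0.63 for ARO8 in gcn4. The cause of these changes was not tested, beyond the arrays left out or turned.

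Counts of genes past the limma test moved from 0 in these cases. A strain left with 1 array is judged by the spread of other strains, and without bas1 replicate 1 bas1 keeps only its widest array. With both wide arrays left out, BY4741 alone has more than 1 array. Nothing is read from these counts. Without centring 1 gene passed in bas1 and 13 in gcn4. Leaving out 1 array gave 0 to 641 genes in bas1, 0 to 493 in bas1 minus BY4741 and 0 to 4 in gcn4, with the highest bas1 counts without bas1 replicate 1. With both wide arrays left out 2 passed in BY4741, 1 in bas1, 1 in bas1 minus BY4741, 122 in gcn4 and 21 in gcn4 minus BY4741. In the main setting an unadjusted p under 0.05 was reached by 494, 90, 187 and 206 genes in bas1, bas2, gcn4 and shm2 minus BY4741.

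The replicate number, shared by bas1 and bas2, was tried as a block over all arrays. BY4741 replicate 3 is the only array with its number, so the block takes it up. The differences from BY4741 then rest on BY4741 replicate 1, and the gcn4 difference of ARO10 is the same as without BY4741 replicate 3. Deviations from the strain mean correlated at 0.54 over 3260 genes in this 1 pair of strains. The titles of both replicate 1 arrays hold GLY-SteadyST, as does that of BY4741 replicate 1. Those of both replicate 2 arrays end in ss, as do those of shm2 and BY4741 replicate 3. No label says what the number or this wording stands for. With the replicate block 0 genes passed in each of the 4 differences, ARO80 was at -1.17 in bas1 and -1.58 in bas2, and ARO10 at -2.71 in bas2 and -2.10 in gcn4. Ratios of single strains have no block value, because they depend on the number they are read at. Precision is limited by 2 arrays a strain at most, and signal over background is unknown.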
